A study of Mus musculus with 2 samples.

Results

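The FOS peaks described here are those that lie between genes but within 50 kb of a transcription start site (TSS). They were chosen from the authors' annotated list of FOS ChIP-seq peaks as every peak whose class is intergenic and whose distance to the nearest TSS is at most 50000 bp. The rule was met by 525 of 2374 peaks (22.1%), of which 386 lay upstream of the nearest TSS and 139 downstream. The peaks come from 1 library of granulosa cells, the somatic cells around the oocyte, punctured from ovaries of wild-type (labelled Wildtype) female mice aged 25 days. Follicle growth had been driven with the gonadotropin PMSG, and ovaries were taken 3 h after hCG, a hormone used in place of the luteinizing hormone surge to start ovulation. The second library of the series has the same genotype and treatment, names no antibody and was not analysed here. There were no replicates and no group without hCG, the depth is unknown, and peaks of 1 library are not replicates of a condition. Values below therefore describe this list, carry counting intervals at most, and were put to no test.

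FOS is a leucine zipper protein that binds DNA as a dimer with a JUN protein, and the pair is called AP-1. AP-1 dimers recognise the sequence TGANTCA, in which N is any base. Much of AP-1 binding is known to fall at distal elements, and a peak between genes can act on a gene on either side or on neither, so the nearest gene is a label and not a target.

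For 12 of the 525 peaks (9 upstream, 3 downstream) part of the peak's own sequence could be read, because the peak overlapped a promoter window of RefSeq (GRCm38.p6, the assembly that mm10 names). Each window holds 300 bases, 250 before a start and 50 after it. Of these 12 peaks, 7 held TGANTCA inside the overlap. That motif equals its own reverse complement, so both strands were searched at once. Of the 13 windows these peaks touched, 7 held the motif (53.8%, exact 95% interval 25.1 to 80.8), against 29.0% of the 297 windows at peaks of the promoter class, 7.56% of the 32486 windows with no peak and 7.81% of all 32851 windows. The windows with members are few, and no test of the difference was made. The related element TGACGTCA was in 0 of the 13 windows (exact 95% interval up to 24.7%), in 8.42% of the windows at promoter peaks and in 1.79% of all windows. Other motifs were searched too. GGAATG, of TEAD factors, was in 30.8% of the 13 (interval 9.09 to 61.4), against 11.1% at promoter peaks and 14.7% of all windows. AGATAA, of GATA factors, was in 23.1% (interval 5.04 to 53.8), against 5.05% and 11.2%. GTAAACA, of FOX factors, was in 7.69%, against 2.69% and 3.65%. The RUNX, C/EBP and NR5A motifs were in 0 of the 13. These shares count whole windows, which include bases outside the peaks. Inside the overlap with a peak, GGAATG was found only in the peak named for Specc1. There AGATAA was found only in the peaks named for Specc1 and Incenp, and GTAAACA only in that named for Gm7008. The sequences below are the parts of the peaks that lie before the start in the 5 peaks with TGANTCA there. They run 5′ to 3′ on the strand of the start, with TGANTCA in capitals.
Peak named for Specc1, chr11:61950667-61950916, + strand: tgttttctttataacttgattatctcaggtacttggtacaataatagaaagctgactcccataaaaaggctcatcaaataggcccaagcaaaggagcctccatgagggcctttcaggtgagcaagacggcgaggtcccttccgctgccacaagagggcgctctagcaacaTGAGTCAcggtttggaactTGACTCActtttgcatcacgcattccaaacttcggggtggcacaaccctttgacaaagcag
Peak named for Atf3, chr1:191224286-191224453, + strand: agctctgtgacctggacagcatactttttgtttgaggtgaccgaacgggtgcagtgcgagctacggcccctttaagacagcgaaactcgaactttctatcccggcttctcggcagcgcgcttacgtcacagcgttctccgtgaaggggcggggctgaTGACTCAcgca
Peak named for Zmat3, chr3:32396815-32397064, + strand: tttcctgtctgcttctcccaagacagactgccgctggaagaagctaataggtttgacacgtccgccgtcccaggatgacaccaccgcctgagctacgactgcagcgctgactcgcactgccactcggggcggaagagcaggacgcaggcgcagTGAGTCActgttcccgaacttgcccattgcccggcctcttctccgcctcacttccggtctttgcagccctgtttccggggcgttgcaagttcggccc
Peak named for Slco1a4, chr6:141875820-141876021, + strand: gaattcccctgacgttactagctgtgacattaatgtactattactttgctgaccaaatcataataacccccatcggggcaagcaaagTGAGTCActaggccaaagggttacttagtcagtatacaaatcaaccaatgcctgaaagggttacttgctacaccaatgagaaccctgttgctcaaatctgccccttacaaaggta
Peak named for 8430430B14Rik, chr17:84026322-84026452, - strand: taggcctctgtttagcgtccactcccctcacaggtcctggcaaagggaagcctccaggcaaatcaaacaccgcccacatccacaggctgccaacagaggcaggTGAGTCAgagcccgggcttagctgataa

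These 5 peaks were intergenic in the authors' annotation, and each sits at a start that RefSeq gives to another gene than the one named. The Specc1 peak, 5.91 kb upstream with a score of 231, covers the whole window of Gm12273, a predicted lncRNA. It held 2 copies of the motif, and the closer copy was 3.5 bp from the peak centre. The Atf3 peak, 41.1 kb upstream with a score of 199, lies with its centre 27 bp from the start of the curated lncRNA D730003I15Rik, and its motif was 35 bp from the peak centre. Atf3 encodes a stress-induced ATF family protein that can itself pair with JUN proteins. The peak named for Zmat3, a p53-induced RNA-binding protein, scored 107 at 31.2 kb upstream and overlaps the promoter window of Pik3ca, the catalytic subunit of PI3-kinase. Its motif lay 120 bp from the peak centre. The peaks named for Slco1a4 (score 69) and 8430430B14Rik (score 44) overlap the windows of the predicted lncRNAs Gm30843 and Gm35551. In 2 further peaks, those named for Incenp (score 88) and Gm7008 (score 67), the motif fell at or after the start. The remaining 5 peaks had no TGANTCA in the stretch that could be read, among them a peak of score 190 at Cfap126 that overlaps a second start of Cfap126 itself and a peak of score 107 named for S100a2 that overlaps the S100a3 window. These stretches were 79 to 157 bp long, so the rest of each peak was not searched.

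Upstream peaks outnumbered downstream peaks, 386 to 139 (73.5% upstream, exact 95% interval 69.5 to 77.3, counting error only). The 2 sides differed in how the peaks were spread over distance. Within 5 kb of the TSS 83 peaks lay upstream and 4 downstream (95.4% upstream, interval 88.6 to 98.7). From 10 to 20 kb the numbers were 100 and 32 (75.8%), and from 40 to 50 kb they were 30 and 25 (54.5%, interval 40.6 to 68.0). The median distance was 13.8 kb upstream (quartiles 5.94 and 25.2 kb) and 27.6 kb downstream (quartiles 15.7 and 36.3 kb). Among intergenic peaks beyond 50 kb, 169 of 315 were upstream (53.7%, interval 48.0 to 59.3).

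**Figure D1:**
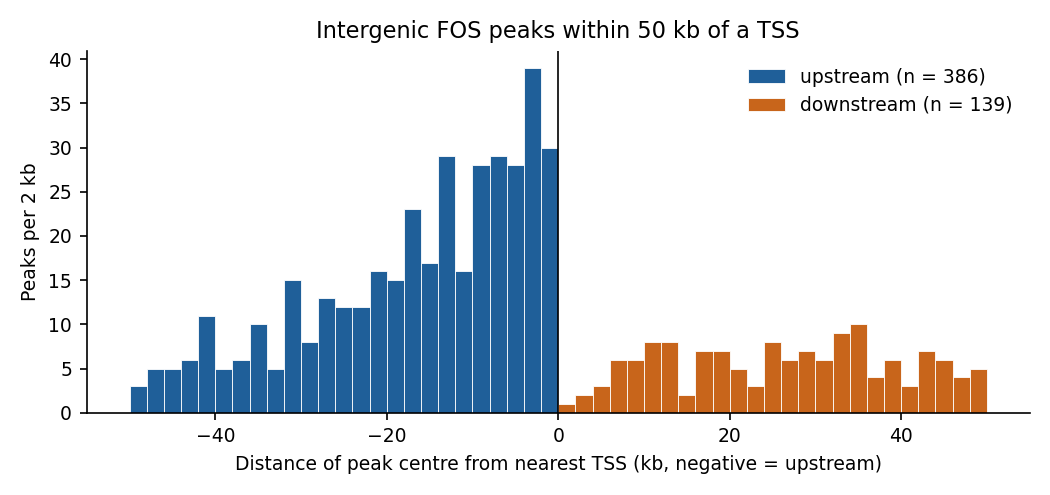
Number of intergenic FOS peaks per 2 kb (vertical axis) by the distance in kb from the nearest TSS to the peak centre, negative for upstream. The 386 upstream peaks crowd toward the TSS, while the 139 downstream peaks spread over the range with a median of 27.6 kb.

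The class leaves out peaks of the promoter class, 360 in the list, of which 287 lay upstream of the TSS. The closest upstream intergenic peak lay 1.01 kb away. The class and the cap also limit the downstream side by construction. A peak inside a gene of the authors' annotation is not classed as intergenic, so a downstream peak lies past the end of its gene in that annotation, and few long genes can have one within 50 kb of their TSS. RefSeq spans can differ from that annotation. Gene spans were compared for peaks on the same chromosome as their matched gene. The named genes had a median length of 25.5 kb for upstream peaks (n = 383) and 9.16 kb for downstream peaks (n = 138). Genes longer than 50 kb made up 31.6% of the former (121 peaks) and 1.45% of the latter (2 peaks), against 23.2% of 21031 curated protein-coding genes. The shares by side count peaks and include noncoding named genes, while the last share counts each protein-coding gene once. The distance exceeded the gene's length for 94.9% of downstream peaks. Measured to the gene's nearer end and not to its TSS, the distances were alike, with a median of 11.8 kb upstream and 12.7 kb downstream.

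**Figure D2:**
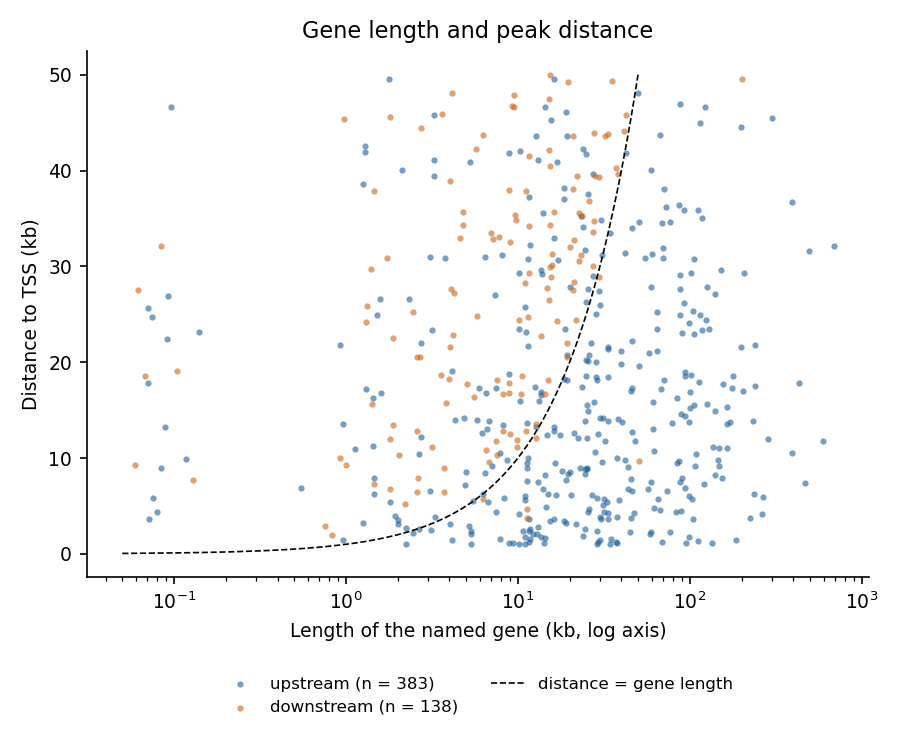
Distance to the TSS in kb against the length of the named gene in kb (log axis) for 383 upstream and 138 downstream peaks. Downstream points lie almost all to the left of the dashed line, where distance equals gene length, and upstream points lie on both sides of it.

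Per length of intergenic sequence in the gaps measured, and over the 50 kb as a whole, peaks were about equally dense on both sides. Sequence was measured in gaps between curated RefSeq genes whose flanking genes both have a strand in the promoter table, leaving out 1000 bp at each gap end. A strand was known for 74.5% of curated genes, and 19 chromosomes were used. These gaps held 295 of the 525 peaks, and the side was that of the authors' table for 291 of them. Within 50 kb of a TSS in these gaps lay 341.1 Mb, of which 70.1% was upstream of the nearest TSS. Of the 293 peaks there, 201 were upstream (68.6%, exact 95% interval 62.9 to 73.9) and 92 downstream. The share of peaks was thus within its counting interval of the share of sequence. In the whole group 386 were upstream and 139 downstream, so the gaps kept relatively fewer upstream peaks. Within 5 kb the gaps kept 36 upstream peaks, against 83 in the whole group, and 4 downstream peaks, against 4. Density outside these gaps was not measured. The density was 0.841 peaks per Mb upstream (exact Poisson 95% interval 0.729 to 0.966) and 0.901 per Mb downstream (interval 0.726 to 1.10). Within 5 kb it was 0.927 per Mb upstream and 0.781 downstream, the latter from 4 peaks. From 5 to 10 kb it was 1.05 (interval 0.760 to 1.41) against 0.659 (interval 0.285 to 1.30), and from 30 to 40 kb it was 0.784 (interval 0.507 to 1.16) against 1.11 (interval 0.698 to 1.69). Upstream was the denser side in every range up to 20 kb. Downstream was the denser side in every range beyond it, as from 20 to 30 kb (0.689 upstream, 1.07 downstream). The intervals of the 2 sides overlapped in every distance range, and the change with distance was not tested. By the orientation of the flanking genes, the density was 0.943 per Mb in gaps that face 2 TSSs (92 peaks), 0.808 in gaps between genes on the same strand (155 peaks) and 0.890 in gaps that face 2 gene ends (46 peaks), again with overlapping intervals.

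**Figure D3:**
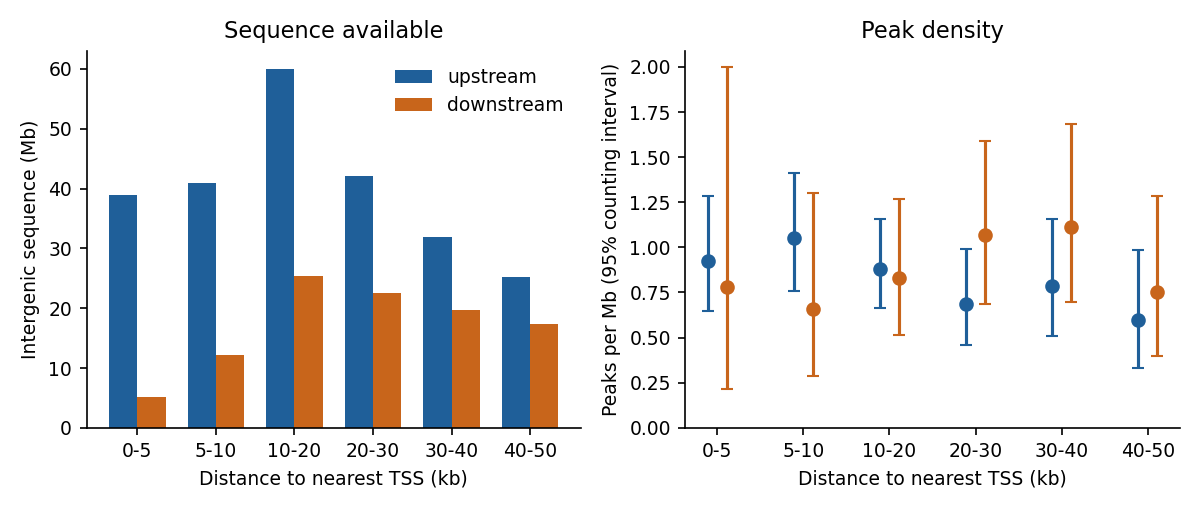
Left, Mb of intergenic sequence in the gaps measured, by distance to the nearest TSS in kb, upstream and downstream. Right, intergenic FOS peaks per Mb of that sequence, with exact Poisson 95% intervals. Upstream sequence is more plentiful in every range, and the density intervals of the 2 sides overlap in every range.

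Scores did not separate the 2 sides. The peak score is the authors' own value for each peak and ranks peaks within this list. Upstream peaks scored 14 to 1277 with a median of 67 (exact 95% interval of the median 62 to 71), and downstream peaks scored 22 to 405 with a median of 71 (interval 64 to 82). Of all pairs of 1 upstream and 1 downstream peak, the upstream peak scored higher in 45.4% and the downstream peak in 53.6%. A score of 99 or more was held by 26.0% of the whole list, by 99 upstream peaks (25.6%, exact 95% interval 21.4 to 30.3) and by 41 downstream peaks (29.5%, interval 22.1 to 37.8). Both shares include the background share in their interval. Median scores elsewhere in the list were 69 for intergenic peaks beyond 50 kb, 68 for introns and 64 for promoters. Widths were alike too, with a median of 346 bp upstream and 355 bp downstream. Higher scores went with wider peaks on both sides (Spearman's rho 0.49 over 386 upstream and 0.47 over 139 downstream peaks, as a description), and scores hardly varied with distance (rho 0.08 and 0.04). These correlations are over peaks of 1 library.

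**Figure D4:**
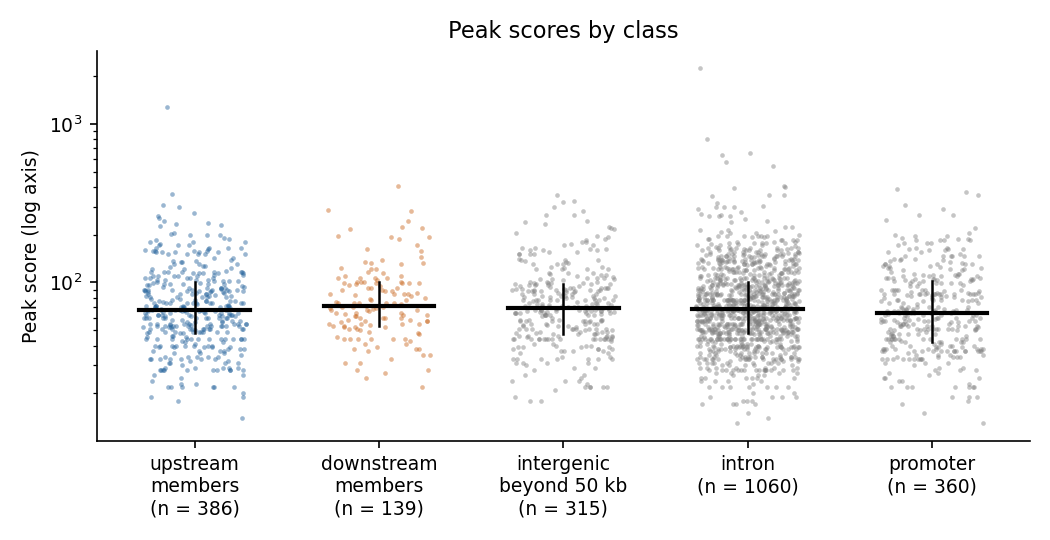
Peak score on a log axis for upstream and downstream intergenic peaks within 50 kb, and for 3 other classes of the same list. Each point is a peak, the horizontal bar is the median and the vertical bar spans the quartiles. The medians lie between 64 and 71.

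The highest-scoring upstream peak stood far above the rest. It lay 10.6 kb upstream of Twsg1, a secreted modulator of BMP signalling, at chr17:65961335-65962259, scored 1277 and was 925 bp wide, the second highest score of the whole list. The body of another gene, Ankrd12, was nearer to it at 3.91 kb. The next peak, of score 363, lay 3.66 kb upstream of BC030867, a gene RefSeq now calls Hrob, at chr11:102244882-102245562. A peak of score 307 lay 30.7 kb upstream of 2700029M09Rik, now Hpf1, a cofactor of PARP enzymes. Mkrn1, a ubiquitin ligase, followed with 297 at 27.6 kb, although the body of Dennd2a was nearer at 14.4 kb. The microRNA gene Mir181c had a peak of 275 at 13.2 kb, and the lncRNA 4833427F10Rik had a peak of 263 at 13.4 kb. Jade1, a subunit of a histone acetyltransferase complex, had a peak of 254 at 15.9 kb. Proc, the anticoagulant protein C, had a peak of 243 at 9.48 kb. Smad3, which carries activin and TGF-beta signals to the nucleus, had a peak of 237 lying 35.9 kb upstream at chr9:63793686-63794133. Id3, an inhibitor of basic helix-loop-helix factors and a known BMP target, had a peak of 234 lying 26.6 kb upstream at chr4:136117025-136117493, with the body of Gm42329 nearer at 21.3 kb.

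The 10 highest downstream peaks lay past genes of 1.46 to 15.8 kb, of which 2 were lncRNA genes. Serpinb9c, of the serpin protease inhibitors, had a peak of score 405 at chr13:33141399-33141978, which was 16.7 kb from its TSS and 7.59 kb past the gene. Kcnv2, a potassium channel subunit, followed with 287 at 42.2 kb, although the body of Gm35554 was nearer at 8.39 kb. The lncRNA Gm10941 had a peak of 282 at 7.26 kb, Gm5294 a peak of 243 at 13.5 kb and the lncRNA 1700016G22Rik a peak of 224 at 20.5 kb. Zfp36l2, which promotes decay of AU-rich mRNAs, had a peak of 219 at 38.9 kb, inside the span of the gene Gm19696 in RefSeq. Wsb1, a ubiquitin ligase adaptor, had a peak of 217 at 40.4 kb. Socs1, a suppressor of cytokine signalling, had a peak of 197 at 30.8 kb, although Clec16a was nearer at 9.83 kb. E2f6, a transcriptional repressor, and Nek2, a centrosome kinase, each had a peak of 194, at 30.2 and 34.2 kb.

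**Figure D5:**
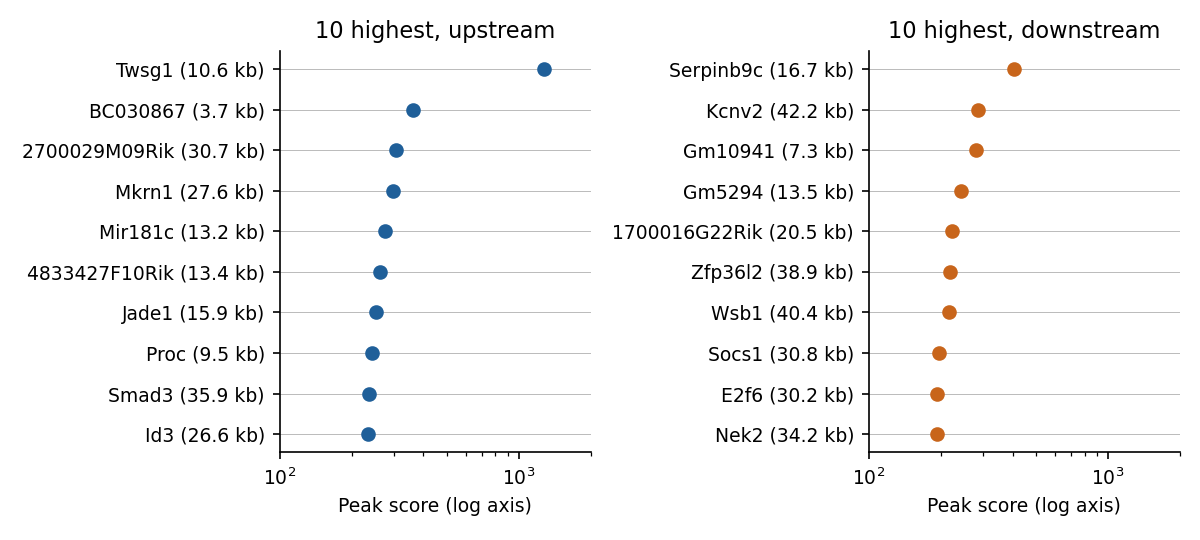
The 10 highest-scoring upstream peaks (left) and downstream peaks (right), by the gene named in the authors' table with the distance to its TSS in kb. The horizontal axis is the peak score on a log axis. Twsg1 at 1277 lies apart from the other 19, which score 194 to 405.

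Downstream peaks were more often named for a noncoding gene. A protein-coding gene was named for 331 of 386 upstream peaks (85.8%, exact 95% interval 81.9 to 89.1) and 95 of 139 downstream peaks (68.3%, interval 59.9 to 76.0). The intervals of the 2 sides do not overlap, and the share over all 2374 peaks was 84.3%. By the limit described above, the genes named downstream were also shorter, with a median of 9.16 kb against 25.5 kb upstream. Whether gene length accounts for the difference in gene type was not tested. Among upstream peaks 35 named a lncRNA and 14 a microRNA gene, and among downstream peaks 36 named a lncRNA and 7 a microRNA gene. Among intergenic peaks beyond 50 kb, 80.5% upstream (interval 73.7 to 86.2) and 70.5% downstream (interval 62.4 to 77.8) named a protein-coding gene, with intervals that overlap.

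Genes of the ovulatory response were found mostly on the upstream side, as were 73.5% of the 525 peaks. Of 34 listed genes with a known part in ovulation, 10 had such a peak (29.4%, exact 95% interval 15.1 to 47.5), 8 with upstream peaks and 2 with downstream peaks. Over all 21887 protein-coding genes 1.77% were named for such a peak, 1.42% upstream and 0.393% downstream. The list was chosen with results of these data known, so its share is a description, and 8 of 10 upstream is close to the upstream share of all the peaks. Adamts1, a protease of the cumulus matrix, had the highest score, 124, lying 37.5 kb past the end of the gene. Cited4, a transcriptional coactivator partner, had a peak of 121 lying 38.6 kb upstream, with the body of Gm8439 nearer at 18.3 kb. Nrip1, a nuclear receptor corepressor, had a peak of 102 at 36.4 kb upstream. Hif1a, a hypoxia factor, had peaks of 88 and 51 at 12.7 and 6.60 kb upstream. The second lay 53 bp from the RefSeq span of the gene. Snap25, a vesicle fusion protein, had 87 at 34.5 kb upstream.

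The peaks of the ovulatory list named for Pgr, Edn2 and Tnfaip6 were of middle rank, at 1038 to 1354 of all 2374 by score. Pgr, the progesterone receptor, had peaks of 74 and 67 at 30.9 and 31.9 kb upstream, at chr9:8868812-8869081 and chr9:8867732-8868078. Edn2, an endothelin peptide induced around follicle rupture, had 71 at 12.6 kb upstream, although Hivep3 was nearer at 10.8 kb. Tnfaip6, a hyaluronan-binding matrix protein, had 62 at 18.3 kb upstream. Cebpa, a transcription factor of luteinization, had 31 at 7.92 kb downstream, a low rank of 2198. The median over the 13 peaks of this list was 74, against 67 over all 2374 peaks.

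Steroid synthesis genes with such a peak were 4 of 17 (23.5%, exact 95% interval 6.81 to 49.9). This list too was chosen with results of these data known, so its share is a description. Cyp11a1, which makes pregnenolone from cholesterol, had upstream peaks of 92 and 33 at 2.34 and 5.80 kb. Nr5a1, the nuclear receptor SF-1 that drives these genes, had a peak of 76 lying 3.09 kb upstream and a peak of 61 lying 24.4 kb downstream, 2.56 kb past its end. Cyp19a1, the aromatase that makes estradiol, had 64 at 29.3 kb upstream, and Por, which supplies electrons to P450 enzymes, had 60 at 5.70 kb upstream. The peaks of Cyp11a1, Cyp19a1 and Por, upstream of the TSS the authors used, lie inside the RefSeq span of the same gene, which reaches further upstream. The same held for 38 of 383 upstream peaks and 1 of 138 downstream peaks, the one named for Sc5d. Cyp19a1 was the only 1 of 7 granulosa markers with such a peak, and the granulosa markers Esr2 and Nr5a2 had peaks outside this group. Of 8 markers of theca, endothelial, immune and oocyte cells 0 had such a peak, and the theca marker Cyp17a1 had a peak of another class. With 1.77% of all protein-coding genes named for such a peak, 8 genes are too few to show a lower share. Peaks do not measure expression, so the cells cannot be typed from them.

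Such a peak was named for 4 of 38 TGF-beta family genes (10.5%, exact 95% interval 2.94 to 24.8), against 1.77% of all protein-coding genes. This list and those that follow were also chosen with results of these data known, so their shares are descriptions. All 4 peaks were upstream, as were 73.5% of the 525 peaks. After Smad3 and Id3 came the inhibitory Smad7 with 158 at 25.0 kb and Smad2 with 88 at 18.1 kb. The body of Gm20544 was nearer to the Smad7 peak, at 16.3 kb. Immediate early genes had 6 of 28 (21.4%, interval 8.30 to 41.0). After Zfp36l2 came Sik1, a cAMP-induced kinase, with 109 upstream, and Klf9, a transcription factor, with 84 at 6.11 kb upstream. AP-1 and MAF genes had 2 of 18 (11.1%, interval 1.38 to 34.7), namely Atf3 and Fosb, the latter with 67 at 17.3 kb upstream and the body of Ercc1 nearer at 16.7 kb. Among 34 nuclear receptors and coregulators 4 had such a peak, with Rara, a retinoic acid receptor, at 102 lying 4.24 kb upstream beside Nrip1, Nr5a1 and Pgr. Of 20 granulosa transcription factors 4 had such a peak, namely Smad3, Hif1a, Nr5a1 and Cebpa, and of 24 cAMP pathway genes 1 had, namely Sik1.

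The remaining lists had few genes each, to be read against the 1.77% of all protein-coding genes. Matrix genes had 4 of 35, with Lox, which crosslinks collagen, at 82 lying 29.2 kb upstream after Adamts1. Cytoskeleton and adhesion genes had 2 of 30, Itgav at 151 lying 9.45 kb upstream and Actb at 83 lying 14.2 kb upstream. Prostaglandin genes had 2 of 18, the transporters Abcc4 at 66 and Slco2a1 at 44. Cholesterol and lipid genes had 2 of 20, Acsl4 at 51 and Soat1, which esterifies cholesterol, at 49. A single gene was found in the EGF and MAPK list (the phosphatase Dusp5, score 37, downstream), the oxidative stress list (Bach1, 64), the clock list (Nfil3, 55), the cytokine list (Il1b, 95, with the body of Il1bos nearer at 8.39 kb) and the endothelial and immune list (Flt1, 71). The theca and stroma, oocyte and unrelated tissue lists had 0 of 10, 0 of 12 and 0 of 18 (exact 95% intervals up to 30.8%, 26.5% and 18.5%), and these intervals include the 1.77% of all protein-coding genes.

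Most genes had 1 such peak. The 525 peaks named 476 genes, of which 430 had 1, 44 had 2 and 2 had more. In the whole list 2374 peaks named 1965 genes, and the 315 intergenic peaks beyond 50 kb named 268. Txndc2, a thioredoxin of the testis, had 4 peaks of score 22 to 55, 2 on each side, and the 2 upstream ones lie inside its RefSeq span. Gadd45g, a stress-induced regulator of MAP kinases and the cell cycle, had 3 peaks, all downstream, of score 109 at 6.77 kb, 74 at 12.0 kb and 95 at 45.6 kb. Peaks on both sides were found for 9 genes. Besides Txndc2 these were led by Nek2 (67 upstream, 194 downstream), Ssc4d (86 and 101), Sik1 (109 and 60) and Sc5d, an enzyme of cholesterol synthesis (56 and 99). A promoter peak of the same gene was present for 12 of the 476 genes. Within 5 kb of another peak of any class lay 47 of the 525 peaks (8.95%). Their median score was 61 (exact 95% interval 49 to 72) against 69.5 (interval 65 to 74) for the rest. The matching shares over the whole list were not worked out for genes with peaks on both sides, promoter peaks of the same gene or close neighbours. None of these counts can therefore be read as an excess or a lack.

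The nearest gene by TSS was often not the nearest gene by its body. Among curated RefSeq genes, the named gene had the closest body for 297 of 386 upstream peaks (76.9%, exact 95% interval 72.4 to 81.1) and 114 of 139 downstream peaks (82.0%, interval 74.6 to 88.0). For the other 114 peaks another gene was closer. The centre of 60 of the 525 peaks lay inside the span of a curated RefSeq gene, and of 142 inside the span of any gene of the table, predicted genes included.

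The upstream peaks closest to a TSS were Mknk2, a kinase of translation factor eIF4E (score 103 at 1.01 kb), Nupr1, a stress-induced chromatin protein (46 at 1.02 kb), and Pdlim3, a muscle cytoskeleton protein (34 at 1.04 kb). Peaks of the promoter class, left out here, lay at a median distance of 0.15 kb. The closest downstream peaks were named for the lncRNAs 4930554I06Rik (35 at 1.94 kb) and 4632427E13Rik (31 at 2.95 kb) and then Txndc2 (38 at 3.79 kb). At the 50 kb limit the last peaks inside were Gm2109 (88 at 49.6 kb) and Ccnl1 (60 at 49.6 kb) upstream and Ppp1r12b (107 at 49.5 kb) and Fam173b (69 at 49978 bp) downstream. The first outside were Aqp11 (51 at 50.1 kb) and Ednra (134 at 50.6 kb) upstream and a second Fam173b peak (96 at 50.5 kb) and Fam161a (62 at 50.7 kb) downstream. The X chromosome held 2 of the 525 peaks and 15 of all 2374.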

How the data were processed

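The authors deposited 1 table of narrow peaks for the FOS library, annotated with HOMER's annotatePeaks program per the file headers. The submitters' processing notes name mm10 and the tools MACS2 2.2.7.1, BWA, Trim Galore and deepTools 3.5.1. The peak threshold and control library were not given in these sources. The score deposited by the authors for each peak is a whole number of unstated scale. Per the labels' protocols, cells were fixed in formaldehyde and sonicated. Read counts were not analysed here, and depth is unknown.

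Genes were matched to RefSeq (GRCm38.p6) by accession (2363 peaks), symbol (10) or older symbol (1). Where the gene had a promoter window, the deposited distance was reproduced within 1 bp for 323 of 391 members. Shares carry Clopper-Pearson intervals, densities Poisson intervals and medians order-statistic intervals. They cover counting error only. Positions for density were taken every 100 bp. The calculation was tested on a simulated chromosome whose genes did not overlap and all had a strand. That simulation did not cover the peaks and genes left out of the gaps in the real data. Windows of 300 bases centred on each member were planned for motifs and not run, because no genome was used here.

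The members and lists were chosen with earlier results of these data known. Named are the 10 highest-scoring members per side, the 3 closest to a TSS, those nearest the limit, all in the ovulatory, steroid and AP-1 lists, up to 3 per other list, genes with 3 or more members and 5 genes with members on both sides. Smad2, Cfap126, S100a2 and the genes of the promoter windows were chosen after their values were seen. The density and promoter window analyses were added after seeing the data. Python 3.11.15, numpy 2.4.6, scipy 1.17.1, pandas 2.3.3 and matplotlib 3.10.9 were used.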

Additional observations from a re-analysis of the deposited data

How the results depend on the processing

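The upstream share of 73.5% stayed within its interval in 5 of 9 alternatives, among them stricter scores and, added after seeing the data, only peaks outside every RefSeq gene span (72.3%). It was 81.8% with a cap of 25 kb, 77.7% with protein-coding nearest genes only and 69.2% at 5 kb or more from the TSS. Taking the nearest gene body gave 55.8% (198 upstream, 157 downstream), with 123 peaks of unknown strand and 47 inside a gene left out. The median scores moved only with a stricter score, to 99 on both sides for peaks scoring 67 or more and to 139 upstream and 124 downstream for peaks scoring 99 or more, settings that raise them by construction. The number of listed genes with a member, 39, was 25 at 67 or more, 11 at 99 or more and 22 with a cap of 25 kb. The ovulatory count of 10 was 3 at 99 or more and 5 with a cap of 25 kb. These settings keep fewer peaks. No paired analysis was possible because a single library was analysed and no test was made, and no library could be left out. Motif alternatives in other window lengths were not run.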
